A study of Mus musculus with 108 samples.

Results

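The comparison described here is that of Bmal1-iKO against Bmal1-flox mouse liver at zeitgeber time (ZT) 10, that is 10 h after lights on, in 6 of the 108 RNA sequencing libraries of the series. The members were chosen by their labels alone, namely liver, ZT10 and genotype, and gave 3 iKO and 3 flox libraries. The labels describe male mice of strain C57BL/J, aged 8 to 12 weeks, under 12 h of light and 12 h of darkness with food and water always present. Bmal1-iKO and Bmal1-flox are written iKO and flox below. The labels give the genotypes by these names only. No source used here names the promoter behind the deletion or the cells it acts in. By its title the series asks how an intestinal clock bears on rhythmic liver metabolism. The labels do not say that the 3 samples of a genotype came from separate animals, so a p-value here reflects the spread of these libraries, some of which may be technical.

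Bmal1, whose gene symbol is Arntl, forms with Clock the activator of the circadian clock, and its targets include its own repressors of the Per, Cry and Nr1d families. The liver alternates between storing and burning fuel over the day. In the fed state insulin and the transcription factor Srebf1 raise the genes of fatty acid synthesis, and in fasting the nuclear receptor Ppara raises the genes of fatty acid oxidation. ZT10 lies late in the light phase, when mice have eaten little for several hours.

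The 6 libraries held 17.0 to 19.7 M counts. Levels are given as CPM, counts scaled to a common library size with TMM factors. Correlations of log2 CPM were 0.969 to 0.977 among iKO libraries, 0.964 to 0.975 among flox libraries and 0.942 to 0.970 between genotypes. The share of counts from mitochondrially encoded protein genes was 10.7, 4.74 and 6.40% in iKO libraries 1 to 3, against 13.3, 12.3 and 6.91% in flox libraries 1 to 3, and the groups overlapped. All 15 hepatocyte markers passed the filter on low counts, and their summed level was 116929 to 137305 CPM in iKO and 135946 to 165617 CPM in flox. None of the 11 liver libraries that stand apart in the series by high cell cycle genes is from ZT10. In bulk tissue, fewer cells of a type and less RNA per cell cannot be told apart.

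Arntl itself, the targeted gene on chromosome 7 (113207465 to 113314126, plus strand, GRCm38), stood at 5.05, 1.83 and 4.71 CPM in iKO livers and at 3.61, 3.76 and 6.02 CPM in flox livers. The groups overlapped, with iKO 2 the lowest library, and the log2 difference of iKO minus flox was -0.21 (SE 0.37, adjusted p = 0.802 in edgeR's quasi-likelihood test). Its sign turned positive without iKO 2 or without flox 3. A count over the whole gene in liver does not check the genotype labels, because neither the deleted part of the gene nor the cells concerned are given.

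The 4 pathway lists with the largest share of called genes in iKO liver at ZT10 were all of lipid metabolism. By edgeR in the 6 libraries, every called gene of fatty acid oxidation and of lipid droplets rose. Every called gene of fatty acid and cholesterol synthesis fell in that fit, though some alternatives called a few members higher. Of 13640 genes tested, 177 rose (1.3%) and 120 fell (0.88%), or 2.18% in either direction, at an adjusted p under 0.05 in edgeR's quasi-likelihood test. The median size was 1.09 on the log2 scale among the rises, of which 112 were at least 2-fold, and 1.29 among the falls, of which 93 were. In all 297 the 3 iKO and 3 flox libraries did not overlap, which was so for 24.1% of all genes tested.

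The number of calls depended on single libraries. Without iKO 2 the calls came to 68, without flox 1 to 128 and without flox 2 to 163, and without flox 3 to 442. All 297 differences kept their sign in each of these fits, which groups that do not overlap impose. A group of 56 genes, 45 higher and 11 lower, was called in all 6 fits that left out 1 library. When all 36 liver libraries of the 6 times shared 1 estimate of the spread, no gene was called at ZT10 (0 of 16582 genes by edgeR, with 904 at an unadjusted p under 0.05). With the 11 libraries that stand apart left out of that fit, 63 were called, 61 of them among the 297. Values below come from the fit of the 6 ZT10 libraries unless another is named. The share of all genes to set beside each list below is 1.3% for rises and 0.88% for falls. For list counts at an unadjusted p under 0.05 by edgeR, the number over all genes was 2644 of 13640. DESeq2 called 766 genes in all.

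The largest rises were in a mitochondrial carrier, a fatty acid hydroxylase and a thyroid hormone enzyme. Slc25a30, a carrier of the inner mitochondrial membrane on chromosome 14 (75760117 to 75787037, minus strand, GRCm38), had 64.5, 59.7 and 63.1 CPM in iKO livers, against 4.34, 7.20 and 5.08 CPM in flox livers. Its iKO libraries lay within a few CPM of each other and far above flox, an 11.3-fold rise (log2 difference 3.49, SE 0.20, adjusted p = 7.0e-06). Cyp4a31, of a family that hydroxylates the far end of fatty acids, had 33.5, 27.6 and 11.7 CPM in iKO and 1.69, 1.93 and 1.78 CPM in flox. Even its lowest iKO library, iKO 3, was several times above flox, and the difference was 3.75 (SE 0.38, adjusted p = 0.00319). Cyp4a31 lies beside its relatives Cyp4a10 and Cyp4a14 on chromosome 4, and how reads of similar sequence were divided within the family is uncertain. Dio1, which converts thyroxine to its active form, had 163, 301 and 153 CPM in iKO and 21.6, 42.3 and 15.2 CPM in flox (difference 2.96, SE 0.44, adjusted p = 0.0193, but 0.182 without flox 1).

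Other large rises spread over several functions. Nlrp12, a sensor protein of the innate immune system, had 130, 136 and 118 CPM in iKO and 15.0, 26.9 and 31.7 CPM in flox (difference 2.38, SE 0.24, adjusted p = 0.00194). Its iKO libraries were again close together, as were those of Rab30, a small GTPase of the Golgi, with 24.9, 28.1 and 24.1 CPM in iKO and 3.61, 6.98 and 7.02 CPM in flox (2.13, SE 0.24, adjusted p = 0.00297). Chrna2, a subunit of nicotinic acetylcholine receptors, stayed low in both groups, with 7.28, 9.12 and 5.0 CPM in iKO and 0.958, 1.77 and 1.26 CPM in flox (2.42, SE 0.33). E2f8, a repressor of cell cycle genes, had 17.9, 9.84 and 11.1 CPM in iKO and 2.99, 2.90 and 1.94 CPM in flox (2.31, SE 0.29). It overlaps the gene Gm2788 on the other strand, which was also called higher, and the strand setting of the counting is not given, so their reads cannot be told apart. Saa1, Saa2, Vnn1, G0s2 and Cyp7b1 complete the 12 largest rises and are described with their groups. Of the 12, Dio1, Saa2 and Vnn1 lost their call without at least 1 library and the other 9 did not.

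**Figure D1:**
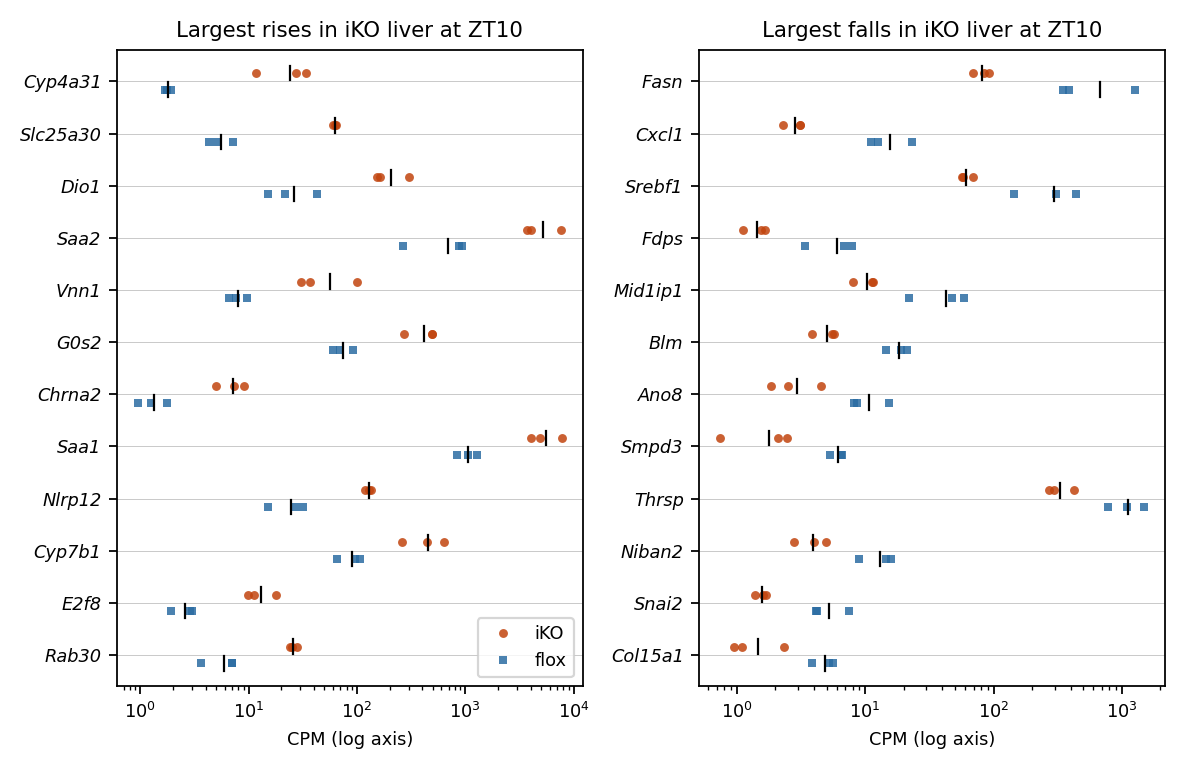
CPM per library (log axis) of the 12 largest rises (left) and 12 largest falls (right) in liver at ZT10, with iKO libraries as circles above flox libraries as squares and a black tick at each mean of 3. Slc25a30 and Nlrp12 show 3 iKO libraries close together far from flox, whereas flox 1 of Fasn, at 1275 CPM, lies well above the other flox libraries.

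Among the largest falls, 4 of 12 belong to lipid synthesis and its regulation, and are described with that group. They are Fasn, Srebf1, Mid1ip1 and Thrsp, and Fdps of cholesterol synthesis is also among the 12. Cxcl1, a chemokine that attracts neutrophils, had 3.08, 3.11 and 2.30 CPM in iKO and 12.7, 23 and 11.2 CPM in flox, with every iKO library below every flox library (difference -2.46, SE 0.30, adjusted p = 0.0034). Blm, a DNA helicase, had 5.53, 3.87 and 5.74 CPM in iKO and 21.2, 19.1 and 14.7 CPM in flox (-1.86, SE 0.22, adjusted p = 0.00319). These were the 2 of the 12 whose call held without each library in turn. Ano8, Smpd3, a sphingomyelinase, Niban2, Snai2, a transcription factor of the Slug type, and Col15a1, a basement membrane collagen, fell by 1.73 to 1.85 and stood below 20 CPM in every library. Each of these 5 lost its call without at least 1 library, with adjusted p up to 0.116. Blm, Ano8, Smpd3, Niban2 and Srebf1 overlap other tested genes on the opposite strand.

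Of 20 genes of mitochondrial fatty acid oxidation tested, 8 rose and none fell, all 20 were positive, and their median log2 difference was 0.69, against -0.03 over all genes tested, of which 1.3% rose. Hadha and Hadhb, the alpha and beta subunits of the trifunctional protein that carries out the later steps of the spiral, had nearly the same change. Hadha had 234, 320 and 226 CPM in iKO and 84.6, 113 and 139 CPM in flox (1.21, SE 0.22, adjusted p = 0.0151). Hadhb had 123, 159 and 104 CPM in iKO and 50.5, 60.9 and 69.8 CPM in flox (1.09, SE 0.19, adjusted p = 0.0152). In both genes iKO 2 was the highest library and flox 1 the lowest.

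The pair lies head to head on chromosome 5. The RefSeq promoter windows (GRCm38.p6, 250 bases before to 50 after the annotated start) of Hadha at chr5:30154931-30155230, minus strand, and of Hadhb at chr5:30155003-30155302, plus strand, share 228 bases. The Hadha window is shown because the start regions of these 2 genes that changed together are largely the same sequence, with the shared bases in capitals.
Hadha: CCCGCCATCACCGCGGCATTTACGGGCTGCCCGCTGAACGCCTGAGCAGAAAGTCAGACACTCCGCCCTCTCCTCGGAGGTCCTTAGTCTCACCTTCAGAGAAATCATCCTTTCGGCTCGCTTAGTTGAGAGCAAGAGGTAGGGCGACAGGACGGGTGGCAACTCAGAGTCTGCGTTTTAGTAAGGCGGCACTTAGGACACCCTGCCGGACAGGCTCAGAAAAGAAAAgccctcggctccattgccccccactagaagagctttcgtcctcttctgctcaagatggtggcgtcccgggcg

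Acsl1, which activates long fatty acids, had 1038, 911 and 739 CPM in iKO and 398, 327 and 472 CPM in flox (1.17, SE 0.21, adjusted p = 0.0152). Slc25a20, the carrier of acylcarnitines into mitochondria, had 170, 176 and 151 CPM in iKO and 71.4, 77.0 and 104 CPM in flox (0.98, SE 0.18). The groups did not overlap in either gene. The other 4 calls were Cpt1a, the entry step (1.0, SE 0.20), Etfdh, which passes electrons to the respiratory chain (1.09), Decr1, needed for unsaturated chains (1.08), and the dehydrogenase Acad11 (1.05). The list had 0 calls without iKO 2, 1 without flox 2 and 3 without flox 1, while the median stayed between 0.59 and 0.86 over all alternatives. Ketone synthesis, which uses the product, had 0 of 4 genes called and a median of 0.60. At an unadjusted p under 0.05, 3 of the 4 passed, and DESeq2 called 1.

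Peroxisomal oxidation and omega-hydroxylation had 6 of 17 genes higher and none lower, with all 17 positive and a median of 0.81. Crat, a carnitine acetyltransferase, had 51.4, 89.3 and 44.6 CPM in iKO and 18.5, 16.4 and 19.7 CPM in flox, so the lowest iKO library stood above 40 CPM and the highest flox library below 20 (1.76, SE 0.24, adjusted p = 0.0056). Eci2, an isomerase for unsaturated fatty acids, had 297, 313 and 231 CPM in iKO and 94.4, 122 and 123 CPM in flox (1.31, SE 0.19, adjusted p = 0.0056). Pex11a, which promotes division of peroxisomes, had 141, 160 and 129 CPM in iKO and 62.5, 55.3 and 79.4 CPM in flox (1.12, SE 0.18). Cyp4a31, given above, was the largest of the 6, and Decr2 (0.81) and Acaa1a (0.82), both enzymes of the peroxisomal pathway, completed them. Cyp4a10 and Cyp4a14 differed by 2.24 (SE 0.46, adjusted p = 0.0526) and 3.53 (SE 1.07, adjusted p = 0.182) without passing the test. Cyp4a32, of the same family, was at 1.01 (SE 0.28, adjusted p = 0.0941) and did not pass either. For Cyp4a14 the values were 770, 560 and 247 CPM in iKO and 27.1, 9.45 and 100 CPM in flox, so both groups spread widely without overlapping. The list kept 3 of its calls without iKO 2 and 4 without flox 1.

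Enzymes that trim acyl-CoA and its cofactor had 2 of 10 genes higher. Acot8, a peroxisomal thioesterase, had 18.6, 24.9 and 16.3 CPM in iKO and 10.5, 8.16 and 10.6 CPM in flox (1.03, SE 0.21, adjusted p = 0.023). Vnn1, a pantetheinase, had 37.1, 101 and 30.6 CPM in iKO and 9.75, 7.63 and 6.65 CPM in flox (2.81, SE 0.50, adjusted p = 0.0438), with iKO 2 far above the other iKO libraries. Both calls were lost without flox 1 (adjusted p = 0.0503 and 0.242) and without flox 2 (0.101 and 0.147). Acot1, a cytosolic thioesterase, showed a larger difference of 3.14 that did not pass (SE 0.72, adjusted p = 0.11).

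The list of lipid droplet and fatty acid uptake genes had 7 of 23 higher and none lower, with a median of 0.73. G0s2, an inhibitor of the triglyceride lipase Pnpla2, had 269, 492 and 489 CPM in iKO and 92.5, 60.4 and 70.2 CPM in flox, where the libraries were well separated (2.49, SE 0.26, adjusted p = 0.00194). Cidec, which enlarges droplets, had 8.19, 11.7 and 7.18 CPM in iKO and 2.42, 2.74 and 2.57 CPM in flox (1.81, SE 0.26, adjusted p = 0.0056). Plin2, the main droplet coat protein of hepatocytes, had 229, 382 and 342 CPM in iKO and 101, 129 and 127 CPM in flox (1.42, SE 0.21). Fitm2, which helps droplets bud from the endoplasmic reticulum, had 52.3, 84.4 and 66.1 CPM in iKO and 24.6, 30.0 and 31.0 CPM in flox (1.25, SE 0.19). These 4 and the monoglyceride lipase Mgll (1.29) stayed called without each library in turn. Plin4, another coat protein (1.99), and Slc27a2, an acyl-CoA synthetase that takes up fatty acids (0.84), did not. The list had 5 to 8 calls over the 6 fits that left out 1 library.

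**Figure D2:**
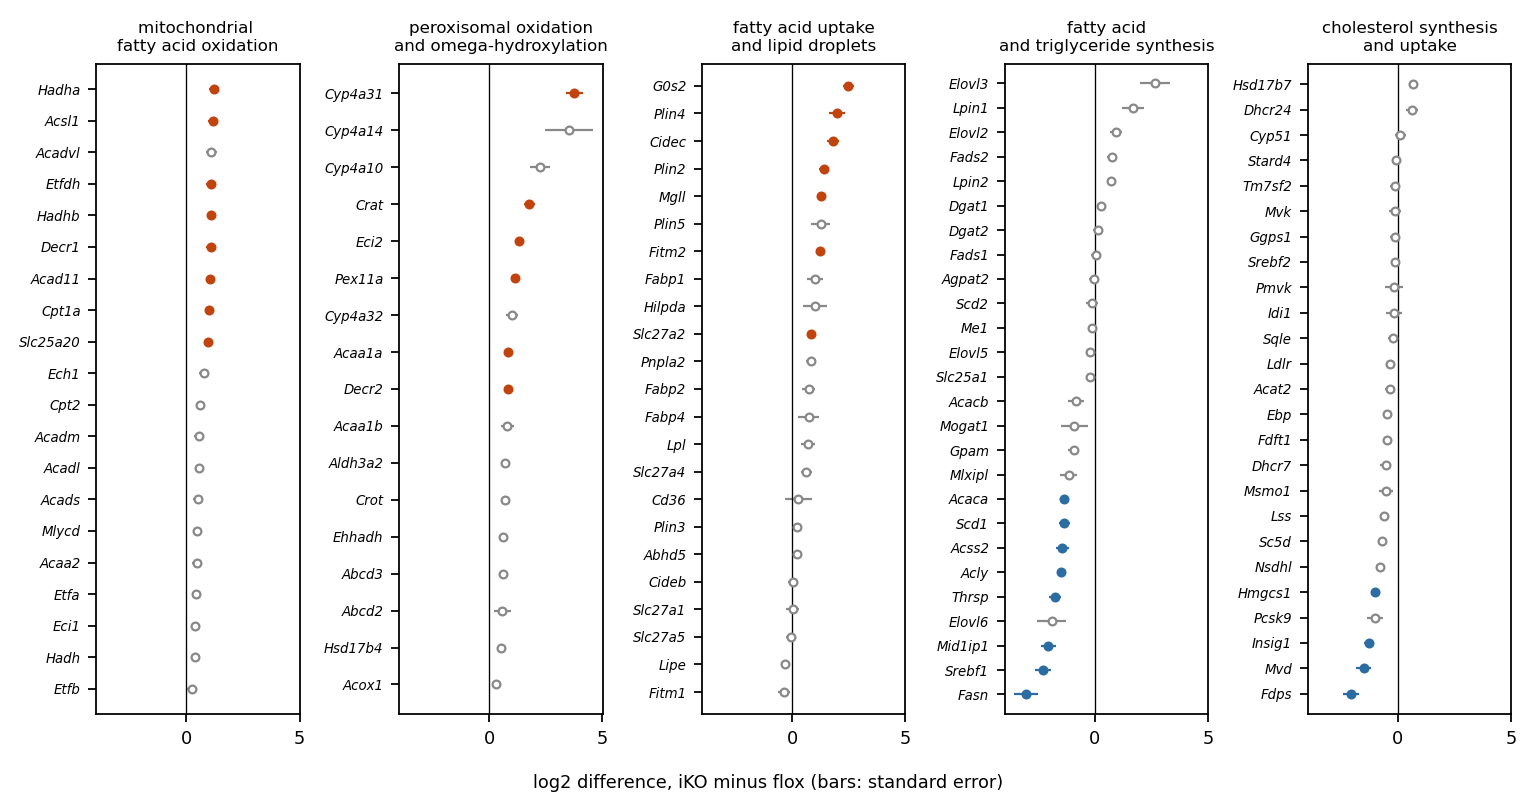
Log2 difference, iKO minus flox, with its standard error, of tested members of 5 lipid lists, each panel ordered from high to low. Filled points passed the test, orange-red higher and blue lower, and open grey points did not. All points of both oxidation lists lie right of 0, while the called points of both synthesis lists lie left of 0.

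Fatty acid and triglyceride synthesis had 8 of 26 genes lower and none higher (0.88% of all genes fell), with a median of -0.52. That median kept its sign but ranged from -0.83 to -0.21 over the alternatives, at -0.31 without flox 1, -0.21 without flox 3 and -0.82 in DESeq2. Fasn, the fatty acid synthase on chromosome 11 (120805846 to 120824547, minus strand, GRCm38), had 68.8, 84.2 and 93.0 CPM in iKO and 1275, 351 and 390 CPM in flox. No libraries overlapped, but flox 1 stood far above the other flox libraries, and the difference of -3.03 had a wide error (SE 0.54, adjusted p = 0.0411). Its call was lost without any of the 3 iKO libraries (adjusted p = 0.114 to 0.162). Srebf1, the transcription factor that turns on this pathway, on the same chromosome (60199089 to 60222581, minus strand), had 69.2, 58.0 and 56.7 CPM in iKO and 438, 145 and 309 CPM in flox (-2.28, SE 0.35, adjusted p = 0.0152, and 0.0788 without iKO 2). Acly, which makes cytosolic acetyl-CoA, had 28.4, 35.0 and 39.4 CPM in iKO and 129, 77.6 and 79.9 CPM in flox (-1.48, SE 0.22, adjusted p = 0.00613). Acaca, which carboxylates it, had 25.4, 36.7 and 28.1 CPM in iKO and 93.4, 70.5 and 65.8 CPM in flox (-1.35, SE 0.19, adjusted p = 0.00548). Both of these held without each library in turn.

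The remaining called genes of the group act beside the same steps. Thrsp, a regulator of lipid synthesis, had 270, 293 and 423 CPM in iKO and 1478, 782 and 1097 CPM in flox (-1.77, SE 0.26, adjusted p = 0.00652). Mid1ip1, its relative that binds acetyl-CoA carboxylase, had 11.6, 11.2 and 8.04 CPM in iKO and 58.7, 22 and 47.6 CPM in flox (-2.05, SE 0.34, adjusted p = 0.0182). In both, flox 1 was the highest library and flox 2 the lowest flox library, as for Srebf1. Scd1, the desaturase, fell by 1.36 and Acss2, an acetyl-CoA synthetase, by 1.44. Not every member fell: 8 of the 26 were positive, and 6 of them had all iKO libraries above all flox libraries without a call. In 12 of the 26 all iKO libraries were below all flox libraries. Over all genes tested, 12.5% lay wholly above and 11.6% wholly below. Elovl3, a fatty acid elongase, had 157, 239 and 135 CPM in iKO and 13.0, 16 and 55.5 CPM in flox (2.65, SE 0.66, adjusted p = 0.12). Lpin1, a phosphatidate phosphatase, had 457, 212 and 396 CPM in iKO and 62.4, 78.9 and 190 CPM in flox (1.68, SE 0.48, adjusted p = 0.129). In both, flox 3 was the highest flox library. Elovl6, another elongase, was at -1.92 and did not pass either (SE 0.63, adjusted p = 0.188). Without iKO 2 the list had 3 genes lower, and 6 to 8 without each of the other libraries. Some alternatives also called members higher, namely 2 without flox 3, 1 without iKO 1, 1 without iKO 3 and 4 by DESeq2.

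Cholesterol synthesis and uptake had 5 of 26 genes lower and none higher, with a median of -0.41 (-0.61 to -0.23 over the alternatives) and 23 of the 26 negative. Insig1, which holds back Srebf processing and is itself a sterol-responsive gene, had 91.3, 105 and 145 CPM in iKO and 321, 277 and 240 CPM in flox (-1.29, SE 0.21, adjusted p = 0.00804). Hmgcs1, a synthase early in the mevalonate pathway, had 73.6, 89.0 and 106 CPM in iKO and 170, 168 and 196 CPM in flox (-0.99, SE 0.18). Within each of these genes all iKO libraries were below all flox libraries. Fdps, the farnesyl diphosphate synthase, fell by 2.07 (SE 0.36) at only 1.12 to 1.65 CPM in iKO and 3.38 to 7.86 CPM in flox, and reads shared with near-identical copies make that level uncertain. Mvd, a decarboxylase of the same pathway, fell by 1.5 but lost its call with size factors of DESeq2 (adjusted p = 0.0517). Without iKO 2 the list had 1 call. Members were called higher in some alternatives, 2 without iKO 1 and 1 by DESeq2.

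The start region of Hmgcs1 is shown because the searched sterol regulatory element (TCACNCCAC, both strands) occurs in it, and Hmgcs1 was the 1 gene with it among the 79 falls that have a window. In all, 1.24% of the 32851 RefSeq promoter windows and 1.48% of the 10141 tested genes with a window hold these letters, and 4 of the 140 rises with a window do. The window lies at chr13:119690101-119690400, plus strand (GRCm38.p6), with the match in capitals.
Hmgcs1: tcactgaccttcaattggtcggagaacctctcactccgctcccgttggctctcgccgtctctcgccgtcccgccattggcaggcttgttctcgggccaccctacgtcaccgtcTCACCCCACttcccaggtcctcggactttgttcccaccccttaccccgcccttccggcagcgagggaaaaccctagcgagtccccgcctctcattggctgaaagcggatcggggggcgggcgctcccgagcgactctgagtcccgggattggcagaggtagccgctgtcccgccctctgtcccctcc

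Of 21 genes of glycolysis and fructose breakdown 3 fell and 1 rose, and of 15 genes of gluconeogenesis and glycogen 1 rose. Over all genes tested 0.88% fell and 1.3% rose, so 1 rise in lists of these sizes is near the background. Pklr, the liver pyruvate kinase, had 54.5, 48.1 and 47.6 CPM in iKO and 170, 150 and 127 CPM in flox (-1.57, SE 0.17, adjusted p = 0.00194). Tkfc, the triokinase of fructose breakdown, had 305, 213 and 202 CPM in iKO and 649, 584 and 571 CPM in flox (-1.33, SE 0.20, adjusted p = 0.00669). Gckr, the regulatory protein of glucokinase, fell by 1.08 (SE 0.20). Pfkfb3, a kinase that favours glycolysis, went the other way, with 19.8, 14.6 and 8.90 CPM in iKO and 4.73, 3.38 and 4.82 CPM in flox (1.75, SE 0.29, adjusted p = 0.00993). G6pc, the glucose-6-phosphatase that releases glucose, had 273, 403 and 350 CPM in iKO and 137, 123 and 143 CPM in flox (1.35, SE 0.19, adjusted p = 0.00485). Pklr and G6pc held without each library in turn, whereas Tkfc, Pfkfb3 and Gckr lost their call without iKO 2 (adjusted p = 0.0551, 0.0554 and 0.11). Pklr overlaps Hcn3 and Tkfc overlaps Cyb561a3 and Ddb1, all on the opposite strand.

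Among 27 genes of insulin and fasting signals 3 rose and none fell, with a median of 0.18. Txnip, which restrains glucose uptake, had 69.4, 88.0 and 121 CPM in iKO and 35.9, 40.5 and 37.3 CPM in flox (1.29, SE 0.20, adjusted p = 0.0068). Angptl4, a fasting-induced inhibitor of lipoprotein lipase, had 293, 295 and 375 CPM in iKO and 61.8, 150 and 147 CPM in flox (1.42, SE 0.30, adjusted p = 0.0418). Creb3l3, a hepatocyte transcription factor active in fasting, rose by 0.75 (SE 0.16, adjusted p = 0.0338). Fgf21, a fasting hormone of the liver, did not pass, with 5.90, 29.4 and 5.97 CPM in iKO and 0.563, 0.322 and 0.995 CPM in flox (4.44, SE 0.91, adjusted p = 0.0735). Here iKO 2 stood far above the other iKO libraries, and without it the difference was 3.23 with an adjusted p of 0.0191. Angptl4 and Creb3l3 lost their calls without iKO 2 (adjusted p = 0.121 and 0.155). No nuclear receptor of lipid metabolism was called by edgeR (0 of 17, with 4 at an unadjusted p under 0.05 and 1 call by DESeq2). Ppara itself had 34.6, 26.5 and 23.8 CPM in iKO and 19.1, 21.5 and 15.5 CPM in flox (0.60, SE 0.19, adjusted p = 0.118).

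**Figure D3:**
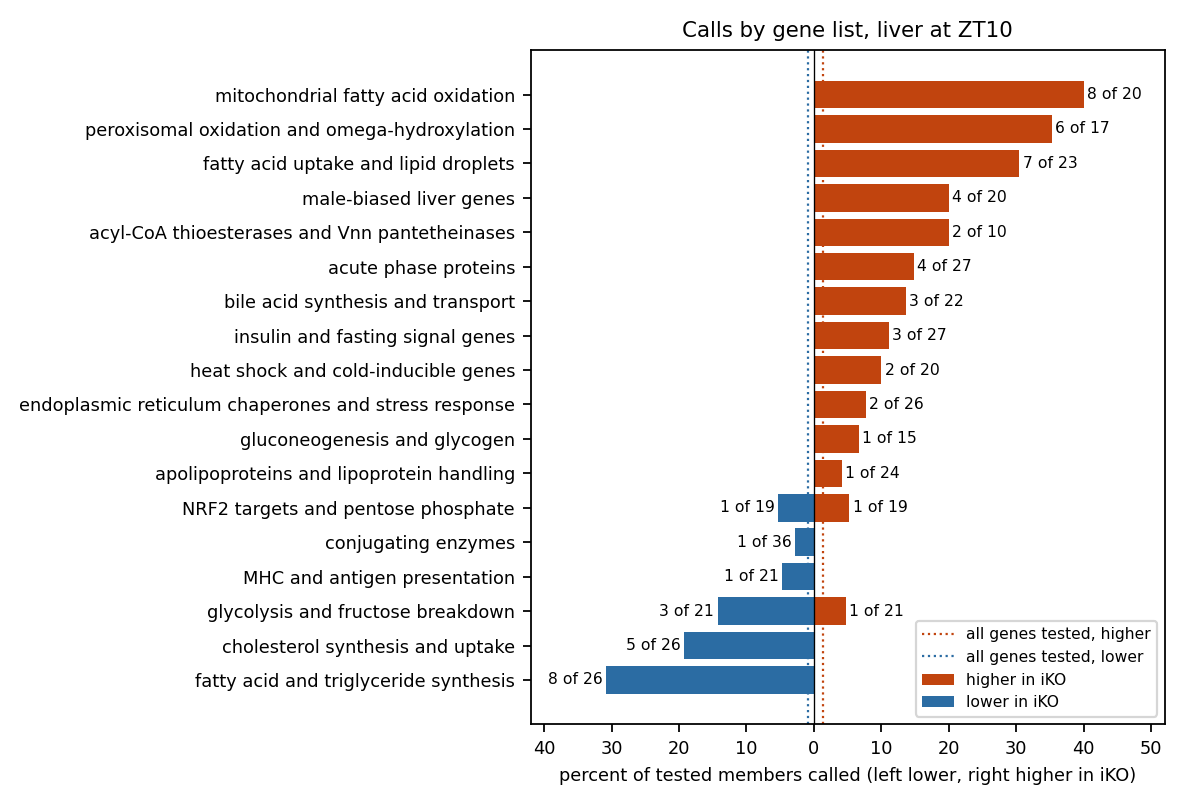
Percent of the tested members of each pathway list that were called in liver at ZT10, to the right for higher and to the left for lower in iKO, for the 18 of 33 lists with a call, with counts beside the bars. Dotted lines mark the share of all genes tested, 1.3% higher and 0.88% lower. Both oxidation lists and the lipid droplet list reach furthest right, and fatty acid synthesis furthest left.

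In bile acid synthesis and transport 3 of 22 genes rose. Cyp7b1, an oxysterol hydroxylase of the alternative bile acid pathway, had 442, 641 and 262 CPM in iKO and 65.1, 107 and 95.7 CPM in flox (2.33, SE 0.32, adjusted p = 0.0068). Abcb4, which moves phosphatidylcholine into bile, had 231, 325 and 278 CPM in iKO and 112, 126 and 118 CPM in flox (1.23, SE 0.18, adjusted p = 0.0056). Slco1a1, an uptake transporter of organic anions, had 300, 296 and 216 CPM in iKO and 89.4, 160 and 103 CPM in flox (1.20, SE 0.23, adjusted p = 0.0196). The classical rate-limiting enzyme Cyp7a1 lay in the other direction with 77.9, 88.6 and 73.4 CPM in iKO and 143, 107 and 216 CPM in flox. Its groups did not overlap, but the difference of -0.96 did not pass (SE 0.23, adjusted p = 0.0528). Cyp7b1 and Slco1a1 are also male-biased liver genes, a list with 4 of 20 higher, all 20 positive and a median of 0.74. The other 2 were C6, a complement component (1.27), and Nudt7, a peroxisomal hydrolase of coenzyme A (1.30). Without flox 1 or without iKO 2 that list had 1 call.

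Plasma proteins of the acute phase had 4 of 27 genes higher. Saa1, an apolipoprotein that soars in inflammation, had 4920, 7741 and 4059 CPM in iKO and 1051, 1281 and 843 CPM in flox (2.40, SE 0.28, adjusted p = 0.00319). Saa2 had 4080, 7709 and 3683 CPM in iKO and 881, 929 and 267 CPM in flox (2.90, SE 0.51, adjusted p = 0.0277). Both were highest in iKO 2, and since the Saa genes are close neighbours of near-identical sequence on chromosome 7, their separate values are uncertain. Saa3 (2.01) and Orm2, a glycoprotein that binds drugs and lipids (1.06), were also called. Of these 4, Saa1 alone held without each library in turn. The list had 1 to 2 genes higher in those fits, and without iKO 3 also 1 lower. Interferon-stimulated genes had 0 of 36 called by edgeR or DESeq2. At an unadjusted p under 0.05, 11 of them passed, against 2644 of all 13640 genes tested. Antigen presentation had 1 of 21, H2-Q4, lower by 0.79 (adjusted p = 0.0272, lost without 5 of the 6 libraries). Against 2.18% of all genes called, 1 call in a list of that size is near the background. Summed macrophage markers (18 of 20 tested, 0 called by edgeR or DESeq2, 1 at an unadjusted p under 0.05) were 167, 581 and 622 CPM in iKO and 348, 533 and 506 CPM in flox. The lowest sum was that of iKO 1, where Saa1 stood above its level in iKO 3, and the part of these cells in the acute phase values was not tested.

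Other single members of lists were called. Apom, the apolipoprotein that carries sphingosine phosphate, had 112, 181 and 142 CPM in iKO and 40.1, 60.5 and 43.8 CPM in flox (1.59, SE 0.22, adjusted p = 0.00471), the 1 call of 24 apolipoprotein genes. Nat8, an acetyltransferase, had 20.8, 13.5 and 18.2 CPM in iKO and 54.6, 40.9 and 56.0 CPM in flox (-1.53, SE 0.20, adjusted p = 0.00466), the 1 call of 36 conjugating enzymes. Against 2.18% of all genes called, 1 call in lists of these sizes is near the background. Both held without each library in turn. Gpx1, a glutathione peroxidase, rose by 0.92 and Pgd, of the pentose phosphate pathway, fell by 0.98, and each lost its call without at least 2 of the libraries.

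Of 20 heat shock and cold-inducible genes 2 rose, and of 26 endoplasmic reticulum chaperones and stress genes 2 rose, against 1.3% of all genes. Hsph1, a large heat shock protein, had 33.1, 30.8 and 21 CPM in iKO and 11.6, 12.3 and 13.4 CPM in flox (1.19, SE 0.19, adjusted p = 0.00942). Hspa1b, an inducible Hsp70 with a near-identical neighbour, had 7.55, 12.1 and 5.57 CPM in iKO and 2.42, 2.52 and 1.47 CPM in flox (1.98, SE 0.34, adjusted p = 0.0123). Dnajb9, a cochaperone of the endoplasmic reticulum, had 33.6, 40.7 and 37.9 CPM in iKO and 16.9, 17.0 and 16.2 CPM in flox (1.2, SE 0.15, adjusted p = 0.00466). Creld2, induced by stress of that compartment, had 27.1, 29.7 and 25.4 CPM in iKO and 15.0, 17.3 and 13.9 CPM in flox (0.83, SE 0.16, adjusted p = 0.0218). The libraries of each genotype lay close together in the last pair. Dnajb9 held without each library, and the heat shock list had 0 calls without iKO 2.

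The start regions of Hsph1 and Creld2 are shown because each holds the element named for its class of stress. The heat shock element occurs in 0.603% of all windows and 0.562% of tested genes with a window. It occurs in 3 of the 140 rises with a window, Hsph1, Creb3l3 and Nploc4, and in 0 of the 79 falls. The endoplasmic reticulum stress response element occurs in 0.119% of all windows and 0.177% of tested genes with a window. It occurs in 1 of the 140 rises, Creld2, and in 0 of the 79 falls. Matches, on either strand, are in capitals in the Hsph1 window at chr5:149636287-149636586, minus strand, and the Creld2 window at chr15:88819396-88819695, plus strand (RefSeq, GRCm38.p6).
Hsph1: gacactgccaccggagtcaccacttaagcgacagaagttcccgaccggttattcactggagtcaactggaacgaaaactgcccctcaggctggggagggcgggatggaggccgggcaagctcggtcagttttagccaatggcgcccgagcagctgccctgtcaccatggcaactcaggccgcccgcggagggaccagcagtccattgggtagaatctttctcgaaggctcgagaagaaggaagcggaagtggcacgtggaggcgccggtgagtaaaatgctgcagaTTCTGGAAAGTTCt
Creld2: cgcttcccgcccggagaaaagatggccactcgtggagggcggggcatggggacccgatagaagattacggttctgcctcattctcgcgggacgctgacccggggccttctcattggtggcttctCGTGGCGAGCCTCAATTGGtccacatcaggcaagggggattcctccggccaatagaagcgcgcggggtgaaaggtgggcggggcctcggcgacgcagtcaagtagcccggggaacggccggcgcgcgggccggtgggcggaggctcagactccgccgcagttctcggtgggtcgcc

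In the main edgeR fit no clock gene was called at ZT10 (0 of 23 tested, against 2.18% of all genes called). At an unadjusted p under 0.05, 6 of the 23 passed, against 2644 of all 13640 genes tested. DESeq2 called 2 of them, against 766 genes in all. With a replicate block 5 were called lower and 1 higher, in a fit that called 1385 genes in all. The median log2 difference of the clock genes was -0.21 (-0.38 without iKO 1 and -0.12 without iKO 2). Per3, a repressor of the Period family, had 26.6, 22.9 and 14.7 CPM in iKO and 83.6, 57.8 and 29.1 CPM in flox, without overlap but with flox 3 close to iKO 1 (-1.41, SE 0.38, adjusted p = 0.109). Without flox 3 it was called (adjusted p = 0.0111), and DESeq2 called it as well (adjusted p = 0.000462). Per2 had 47.8, 26.8 and 20.6 CPM in iKO and 118, 48.4 and 32.6 CPM in flox, which overlapped (-1.06, SE 0.58, adjusted p = 0.387).

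The partner and repressors of Arntl showed smaller differences. Clock had 25.0, 22.4 and 25.9 CPM in iKO and 21.5, 17.1 and 25.3 CPM in flox (0.20, SE 0.18). Differences were -0.09 for Cry1, -0.20 for Cry2, 0.02 for Per1, -0.02 for Nr1d2 and -0.54 for Nr1d1, all with overlapping libraries and adjusted p from 0.525 to 0.97. The signs of Cry1, Per1 and Nr1d2 turned in some fits that left out 1 library. Nr1d1, like Per3, was called lower without flox 3 (adjusted p = 0.0437 by edgeR). Among output factors, Dbp had 21, 35.0 and 36.4 CPM in iKO and 48.9, 82.8 and 27.0 CPM in flox (-0.78, SE 0.40, adjusted p = 0.342). Flox 2 was its highest library and flox 3 fell among the iKO values. Tef differed by -0.46 (adjusted p = 0.202), Hlf by 0.11 and Nfil3, which competes with them, by 0.62 (SE 0.21, adjusted p = 0.142). Of the 23, no overlap was seen in 5, 1 higher and 4 lower, a share near the 24.1% of all genes without overlap. The E-box CACGTG, the site of Arntl and Clock, occurs in 21 of the 140 rises with a window (15.0%) and 10 of the 79 falls (12.7%), against 11.7% of tested genes and 7.15% of all windows, and these matches are a description only.

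**Figure D4:**
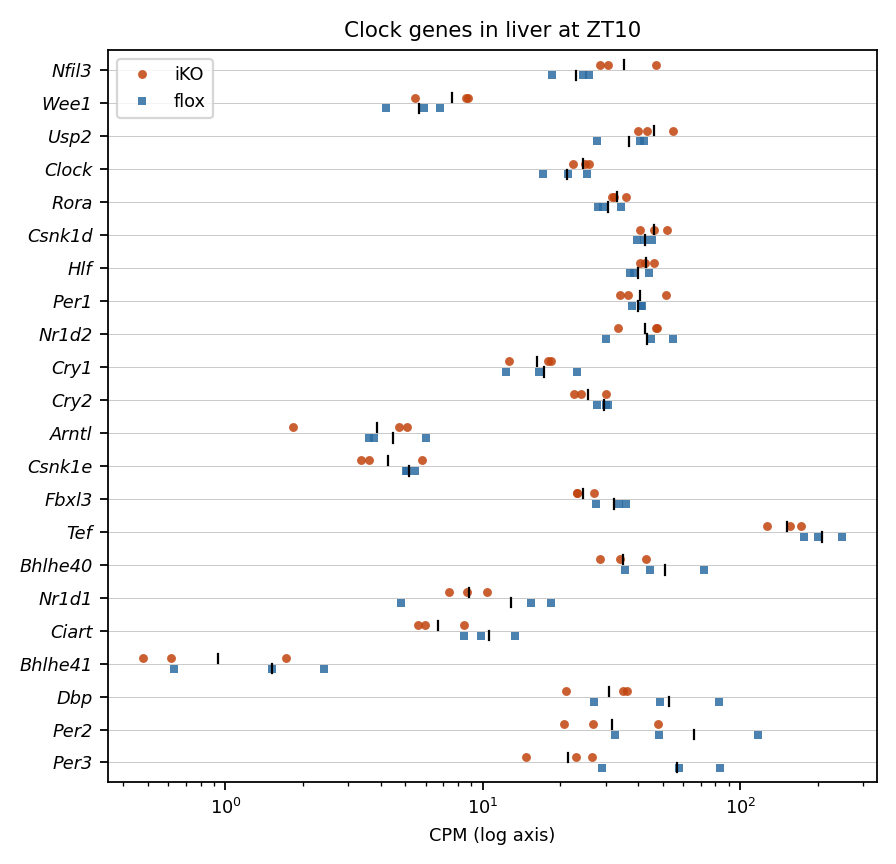
CPM per library (log axis) of 22 of the 23 tested clock genes in liver at ZT10, iKO circles above flox squares, with a black tick at each mean of 3, ordered from the most positive to the most negative log2 difference. Most genes overlap between genotypes, and Per3 at the bottom has its 3 iKO libraries below its 3 flox libraries.

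Pathways with no call by edgeR included amino acid breakdown and the urea cycle (0 of 47, median -0.18), drug-metabolizing P450 enzymes (0 of 31, median 0.06), nuclear genes of oxidative phosphorylation (0 of 54, median 0.10), mitochondrially encoded genes (0 of 13, median -0.49), glucocorticoid targets (0 of 15), immediate early genes (0 of 20), cell cycle genes (0 of 20), heme and NAD genes (0 of 20), female-biased genes (0 of 7), and genes of hepatocytes near the central vein (0 of 16, median 0.14) or the portal vein (0 of 15, median -0.00414). At an unadjusted p under 0.05, 2644 of all 13640 genes tested passed, so passing at that p was common. Among the lists, 13 of the 54 nuclear oxidative phosphorylation genes, 12 of the 47 amino acid genes and 7 of the 31 P450 genes passed. DESeq2 called 2, 4 and 4 genes of these lists, against 766 genes in all. Fewer passed in the other lists at that p, with 4 glucocorticoid, 3 immediate early, 2 cell cycle, 6 heme and NAD, 1 mitochondrially encoded and 0 female-biased genes. Of these, DESeq2 called 1 glucocorticoid, 2 immediate early and 1 mitochondrially encoded gene. Of the hepatocyte zone lists, 4 central and 5 portal genes passed at that p and DESeq2 called 3 of each. The summed level of the central vein genes was 16030 to 18106 CPM in iKO and 8972 to 12318 CPM in flox, without overlap. Most of that sum was the single gene Cyp2e1. The mean log2 CPM of the list overlapped, at 6.47 to 6.65 in iKO and 6.19 to 6.52 in flox. Cyp2e1, the ethanol-oxidizing P450 of the cells around the central vein, had 11378, 11185 and 12713 CPM in iKO and 5262, 6917 and 6826 CPM in flox, and did not pass (0.89, SE 0.22, adjusted p = 0.0572). Albumin, Alb, had 46038, 37402 and 48580 CPM in iKO and 70567, 76931 and 79395 CPM in flox, with no overlap and no call (-0.78, SE 0.24, adjusted p = 0.113). DESeq2 called both (adjusted p = 2.4e-05 and 0.000343).

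Of 13 cell type lists, 1 held a call by edgeR, the adipocyte list, in which 2 of 10 markers were tested. The other lists held 0 to 5 genes each at an unadjusted p under 0.05, which 2644 of all 13640 genes tested reached. By DESeq2, 4 of 15 hepatocyte genes and 1 of 5 erythroid genes were called. That call was Adrb3, a beta-adrenergic receptor, lower by 1.45 (adjusted p = 0.0358, lost without 5 of the 6 libraries). Lep, Retn and Slc36a2 had no count and Adipoq had 1 count over the 6 libraries. Summed levels overlapped between genotypes for all lists except those of enterocytes and kidney tubules. Enterocyte markers summed to 132, 401 and 112 CPM in iKO and 86.9, 75.7 and 93.2 CPM in flox. These sums came from Apoa4 and Fabp2, 2 genes that liver also expresses, while Sis, Lct, Alpi, Cdx1 and Krt20 had no count. Kidney tubule markers summed to under 2 CPM in every library. Erythroid markers reached 101 to 284 CPM in iKO and 55.4 to 110 CPM in flox, and Hbb-bs, a beta-globin, differed by 2.44 without a call (SE 0.72, adjusted p = 0.161).

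The same comparison at ZT2, in 6 other liver libraries, asks whether the ZT10 differences recur early in the light phase. Fitted alone, ZT2 gave 5 calls of 13483 genes (0.0371%), 3 higher (0.0223%) and 2 lower (0.0148%), none shared with ZT10. The signs nonetheless mostly matched: of the ZT10 rises tested at ZT2, 153 of 173 (88.4%) were positive there, against 51.6% of all genes, and of the falls 89 of 116 (76.7%) were negative, against 48.4%. Their medians at ZT2 were 0.56 and -0.49. The difference of the differences was called for 0 of 14412 genes (lowest adjusted p = 0.218), with 1226 at an unadjusted p under 0.05 and 8 calls by DESeq2, so no gene was shown by edgeR to differ between the times. Simulated counts for that test recovered 14% of 2-fold and 81% of 4-fold changes.

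Single genes show both patterns. Cyp4a31 differed by 3.34 at ZT2 (SE 0.57), Slc25a30 by 3.07 (SE 0.97), G0s2 by 3.57 (SE 0.70) and Fasn by -2.28 (SE 0.43), each with the same sign as at ZT10. Saa1 and Saa2 lay on the other side of 0 at ZT2, at -1.47 (SE 1.06) and -1.67 (SE 1.36). Those 2 were the exceptions among the 24 genes named by size, and their difference between the times was not called (adjusted p = 0.537 for each). Peroxisomal oxidation had a median of 1.12 at ZT2, mitochondrial oxidation of 0.57, fatty acid synthesis of -0.54 and cholesterol synthesis of -0.78, with no gene called in any of them. The acute phase list had a median of -0.60 at ZT2, against 0.33 at ZT10.

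**Figure D5:**
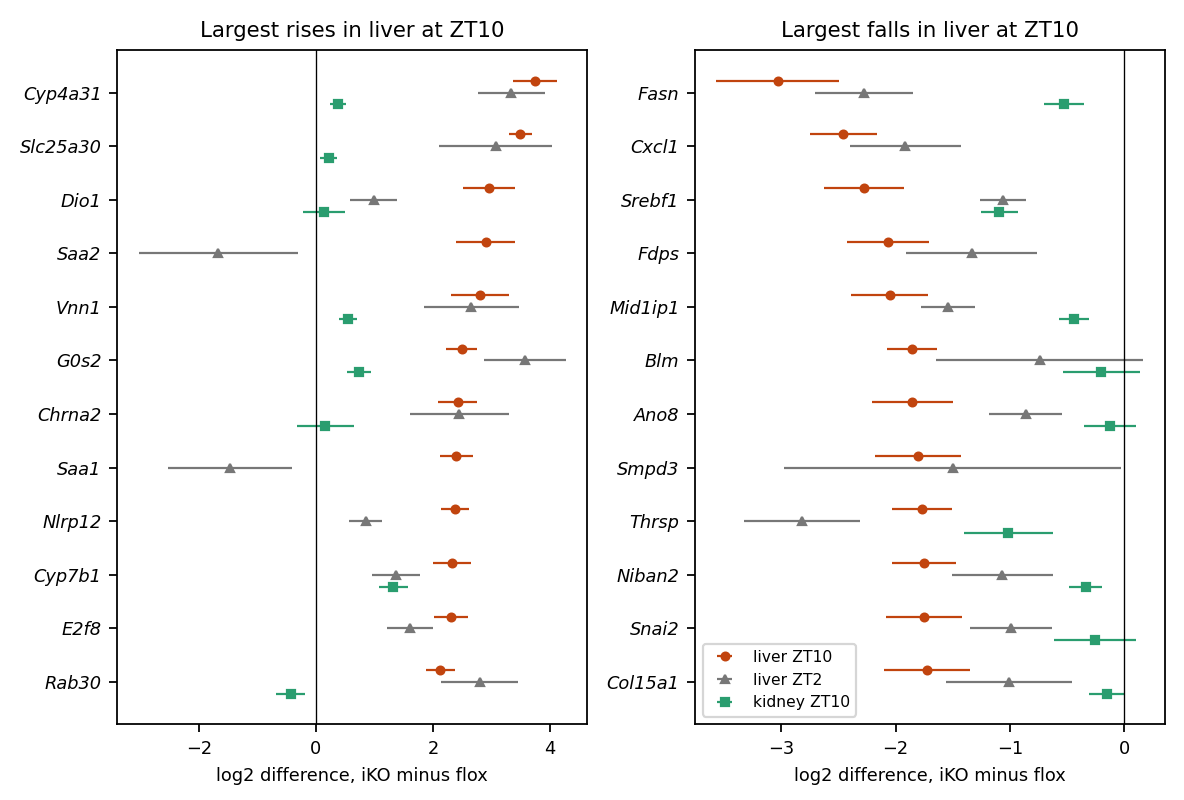
Log2 difference, iKO minus flox, with its standard error, of the 12 largest rises (left) and falls (right) in liver at ZT10, beside the same genes in liver at ZT2 and kidney at ZT10, each from a fit of its own 6 libraries. Saa1 and Saa2 lie left of 0 at ZT2, and the kidney points span -1.09 to 1.32. A missing kidney point is a gene filtered out there for low counts.

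Kidney of the same genotypes and time gave 5 calls of 15392 genes (0.0325%) when fitted alone, 4 higher (0.026%) and 1 lower (0.0065%), none of them called in the same direction in liver. Of the ZT10 liver rises tested in kidney, 118 of 160 (73.8%) were positive there, against 49.7% of all genes, with a kidney median of 0.14. Of the falls, 53 of 98 (54.1%) were negative, against 50.3%, with a kidney median of -0.05. Among the 24 genes named by size, 9 of 9 falls and 7 of 8 rises tested in kidney had the sign they had in liver, and none was called there (lowest adjusted p = 0.0674). The difference of liver minus kidney was called for 97 of 16436 genes (0.59%), 42 more positive and 55 more negative in liver. Slc25a30 in kidney had 169, 211 and 198 CPM in iKO and 140, 181 and 177 CPM in flox, where the groups overlapped (difference between tissues 3.27, SE 0.26, adjusted p = 7.2e-06). Cyp4a31 in kidney had 349, 370 and 406 CPM in iKO and 301, 302 and 261 CPM in flox (difference between tissues 3.36, SE 0.39, adjusted p = 0.000869). In the joint fit of both tissues Tkfc was positive in kidney, at 0.52 (SE 0.18), and negative in liver (difference between tissues -1.85, adjusted p = 0.00492). G0s2 also differed between the tissues (1.75, adjusted p = 0.0342), whereas Fasn did not pass (-2.51, adjusted p = 0.0594). Of the 24 genes named by size, 5 differed between the tissues by this test. They were picked for large differences in the same liver libraries, so a share above the 0.59% of all genes is built in. Over all genes, the calls between tissues came to 13 without kidney flox 1 and 17 without liver iKO 2. They came to 29 without liver flox 1 and 174 without liver flox 3.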

How the data were processed

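Gene counts were analysed as deposited by the authors, 1 table of whole-number read counts per gene for 108 libraries. Per the submitters' processing notes, HISAT2 2.0.4, featureCounts 1.5.0-p3, DESeq2 1.16.1 and GRCm38 were used, with no settings given, so strand handling and the treatment of shared reads are unknown. Per the labels' protocols, liver total RNA was made into libraries with a NEBNext Ultra RNA kit and read at 150 bp.

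From these counts, the 6 ZT10 liver libraries were fitted alone with edgeR 4.0.16 (R 4.3.3): filterByExpr, TMM scaling, robust quasi-likelihood fit and test of iKO minus flox, with no covariate. Of 55416 genes 13640 were tested, p-values were adjusted by Benjamini and Hochberg over all of them, and a gene was called at an adjusted p under 0.05. The same model gave differences of differences against ZT2 liver and ZT10 kidney (12 libraries each). SE is the log2 difference divided by the root of the F statistic. CPM are TMM-scaled within a tissue and time. No 2 libraries of a genotype agreed within sampling noise (lowest chi-square per degree of freedom 32.4 over 6 pairs).

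Genes named are the 12 largest rises and falls among called genes whose log2 CPM averaged 1 or more and whose groups did not overlap, passing over predicted genes and pseudogenes, then all clock genes, up to 4 members of each list by smallest p, and the 5 smallest p each way between tissues. Other genes are named after their values were seen, and a few genes that the rule picks are not reported here. The members and lists were chosen with earlier results of these data known.

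Coordinates are those of GENCODE M21 (GRCm38) by Ensembl identifier. The table's own coordinates are not used: 1457 of 52046 matched nuclear genes have the same start and end. Promoter windows are from RefSeq (GRCm38.p6), found for 140 of 177 rises and 79 of 120 falls. In simulated counts for the ZT10 comparison (13380 genes), 56% of 2-fold and 98% of 4-fold changes were called, and so were 9 unchanged genes. Only genes with higher mean counts were changed, and each gene took the spread of the fitted trend. Recovery may be lower for genes with low counts or a wide spread. Alternatives were DESeq2 1.42.0, its size factors, no filter, a replicate block, wider sets of liver libraries, and leaving out each library.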

Additional observations from a re-analysis of the deposited data

Results flagged for a closer look

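The genotype difference at ZT10 differed between liver and kidney for 97 genes by edgeR, and the 9 named here were among those with the smallest p in each direction. Each is given as the liver difference minus the kidney difference on the log2 scale, with both differences from the joint fit of 12 libraries.

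Among genes more positive in liver, Slc25a30, the mitochondrial carrier, differed by 3.27 (SE 0.26, adjusted p = 7.2e-06), from 3.49 in liver and 0.22 in kidney. Cyp4a31 differed by 3.36 (SE 0.39), from 3.75 in liver and 0.39 in kidney. Rab30 differed by 2.55 (SE 0.34), from 2.12 in liver and -0.43 in kidney. Hspa1b, the inducible Hsp70, differed by 2.85 (SE 0.42), with 28.5, 21.2 and 19.6 CPM in iKO kidneys and 52.3, 28.6 and 46.6 CPM in flox kidneys, so it lay on opposite sides of 0 in the tissues. Lrrc15, a membrane protein with leucine-rich repeats, differed by 4.89 (SE 0.71) at very low liver levels of 1.06, 1.43 and 1.38 CPM in iKO and 0, 0.107 and 0.105 CPM in flox.

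Among genes more negative in liver, Slc2a4, the insulin-responsive glucose transporter, differed by -5.27 (SE 0.61). It had 0.0532, 0 and 0.23 CPM in iKO livers and 5.18, 2.04 and 3.77 CPM in flox livers, against 36.5, 35.8 and 46.6 CPM in iKO kidneys and 43.3, 40.2 and 37.1 CPM in flox kidneys. Tkfc differed by -1.85 (SE 0.26), from -1.33 in liver and 0.52 in kidney. Dnph1, a nucleotide hydrolase, differed by -1.51 (SE 0.24, adjusted p = 0.0106), from -0.86 in liver and 0.65 in kidney. Spata2l differed by -1.46 (SE 0.22), from -1.15 in liver and 0.31 in kidney.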

How the results depend on the processing

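In liver at ZT10, DESeq2 gave 766 calls (441 higher, 325 lower), no filter 1136 (594 and 542), all 36 liver libraries 0 (0 and 0) and the set without the 11 that stand apart 63 (45 and 18). Leaving out 1 library gave 68 to 442 (53 to 256 higher, 15 to 209 lower). For ZT10 against ZT2, DESeq2 gave 8 (3 and 5), no filter 187 (62 and 125), and leaving out 1 library 0 to 2 (0 to 2 each way). For liver against kidney, DESeq2 gave 430 (212 and 218), no filter 519 (227 and 292), and leaving out 1 library 13 to 174 (7 to 76 and 6 to 98). Size factors of DESeq2 kept these counts within 1.5 times. The cause of these shifts was not tested, beyond the fewer samples and more genes that some settings bring.

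The replicate block gave 1385 calls (712 and 673) at ZT10 and 147 (63 and 84) between tissues. Under the block 5 of 23 clock genes were called lower and 1 higher, against 673 lower and 712 higher among all 13640 genes tested. Per1 was at -0.00206 and Nr1d2 at 0.000496 in that fit, each turned round. Same-numbered iKO and flox libraries correlated at 0.265, 0.079 and 0.168 in their deviations, and libraries of unlike number at -0.213 to 0.061. Each iKO library thus correlated best with its own number. The labels do not say that the numbers pair, so whether the fit with or without the block is the better was not settled. Of the 297 main calls, 291 were also called with the block. Leaving out 1 library, Arntl ranged from -0.44 to 0.13, Cry1 from -0.29 to 0.18, Per1 from -0.17 to 0.14 and Nr1d2 from -0.22 to 0.18. Of 1654 refitted differences of 138 genes, 11 turned round, 341 lost and 50 gained a call.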

Other observations

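Several called genes belong to no list and were picked after their values were seen. Retsat, which saturates retinol, had 380, 594 and 373 CPM in iKO livers and 119, 128 and 169 CPM in flox livers (log2 difference 1.69, SE 0.23, adjusted p = 0.00471 in edgeR). Lipg, an endothelial-type lipase, had 7.60, 9.12 and 7.24 CPM in iKO and 1.41, 2.74 and 1.52 CPM in flox (2.08, SE 0.30). Slc25a33, a mitochondrial carrier of pyrimidine nucleotides, had 21.5, 34.5 and 28.0 CPM in iKO and 4.68, 9.72 and 9.22 CPM in flox (1.83, SE 0.27). The libraries did not overlap in any of these, and each call held without each library in turn.

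Nceh1, a hydrolase of cholesterol esters, had 29.0, 43.0 and 42.7 CPM in iKO and 12.1, 15.5 and 13.9 CPM in flox (1.47, SE 0.19). Slc22a5, the carnitine transporter of the cell surface, had 27.4, 39.9 and 28.1 CPM in iKO and 13.0, 14.9 and 12.0 CPM in flox (1.26, SE 0.19). Acsl3, an acyl-CoA synthetase found on lipid droplets, went the other way, with 9.52, 12.2 and 9.36 CPM in iKO and 23.2, 23.5 and 19.4 CPM in flox (-1.09, SE 0.18). All 3 calls held without each library in turn. Klk1b22, a kallikrein, had 81 counts over the 3 iKO libraries and 0 over the 3 flox libraries, at least 26.8-fold higher in iKO when flox is set to 3 counts over the group. Kallikreins of this cluster are near-identical, so its reads may belong to a relative. In all, 36 of the 56 genes called in every fit that left out 1 library were in no list.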
